A study of Mus musculus with 4 samples.

Results

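DNA replication and S phase genes are the 38 genes described here. They were chosen by symbol and known role, from origin licensing and polymerases to clamp loading and nucleotide supply. All probe sets annotated to exactly 1 of the symbols were taken. The rule itself uses no signal, but the genes were chosen with earlier results of these data known. They account for 38 of 18193 named genes and 85 of 45037 probe sets on a mouse expression array. RNA came from bone marrow-derived dendritic cells (DCs) of C57/BL6 background in 4 groups with 1 array each: LXR-DKO with LPS, LXR-DKO control, WT with LPS and WT control. LXR-DKO mice lack both liver X receptors, LXRα (Nr1h3) and LXRβ (Nr1h2), which are sterol-activated nuclear receptors, in every cell type as far as the labels say. Each culture held 10 ng/mL GM-CSF for 24 h after selection for CD11c, the surface integrin of DCs, and the LPS cultures also held 100 ng/mL lipopolysaccharide, the bacterial cell wall component that matures DCs. Age, sex, the number of mice and any pooling were not given in the sources used here.

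Before a cell copies its DNA, licensing factors load the MCM helicase onto origins in G1, and at S phase entry the helicase is activated and joined by primase, polymerases, the sliding clamp and the enzymes that make deoxynucleotides. Most of these genes are transcribed in cycling cells under E2F factors and are switched down when cells leave the cycle. DC precursors divide in GM-CSF cultures, and maturing DCs are known to stop dividing.

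Signals below are MAS5 intensities, brought by the authors to a common brightness, with the array medians between 25.9 and 32.9. A floor of 28.9, the median of all signals, separated measured values from dim ones, and each gene is given by its probe set with the highest mean signal. Of the 85 probe sets, 63 reached the floor on all 4 arrays and 74 on at least 1, and at the level of genes 35 of 38 reached it on all 4. With 1 array per group there is no replicate and no p-value. The only internal error is the spread among probe sets of 1 gene, an SD of 0.31 (LXR-DKO) and 0.38 (WT) on the log2 scale for the LPS responses of the replication genes, which does not cover differences between cultures or mice. The Nr1h3 probe set read 27.0 with LPS and 40.4 without in LXR-DKO, against 54.5 and 108.6 in WT; where it lies relative to the deleted part is not known, so it checks the labels only in part, and Nr1h2 was not analysed here. Of 17 DC marker genes on the array, 17 and 16 reached the floor in LXR-DKO with and without LPS, against 13 and 15 in WT, and Itgax, which encodes CD11c, read 3848.1 and 4404.5 against 6093.0 and 5012.2. Flt3, the receptor of the DC growth factor Flt3 ligand, reached the floor only in LXR-DKO with LPS. It read 107.3 with LPS and 23.9 without in LXR-DKO, against 13.4 and 9.9 in WT.

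LPS went with lower signals of the replication genes in both genotypes, with much larger differences in WT. In LXR-DKO cells 2 of 38 genes, Pold1 and Tk1, were at least 2-fold lower with LPS than without and 0 were at least 2-fold higher, while 1.82% and 6.23% of all measured genes were. In WT cells 24 of 37 measured genes were at least 2-fold lower and 0 were higher, against 4.79% and 2.93% of all genes. The median log2 ratio of LPS over control was -0.45 in LXR-DKO, a 1.36-fold lower signal, and -1.45 in WT, a 2.74-fold lower one, with Pole and Tk1 at their lower limits. Over all measured genes the medians were 0.02 and -0.05. By sign alone, 35 of 37 genes were lower with LPS in both genotypes, Rfc2 and E2f1 being the exceptions, but Rfc1 in both genotypes and Fen1 and E2f1 in WT lay so near 0 that another scaling turned their sign. For 32 of 37 the WT difference was the larger. Of all measured genes, 5702 of 11793 were lower with LPS in LXR-DKO and 6413 of 11449 in WT, by sign alone. The log2 LPS response was lower in WT than in LXR-DKO for 7239 of 12478. The share of all genes lower in both genotypes was not computed. Each sample is a bulk culture, so that fewer dividing cells and less of these RNAs per cell cannot be told apart.

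**Figure D1:**
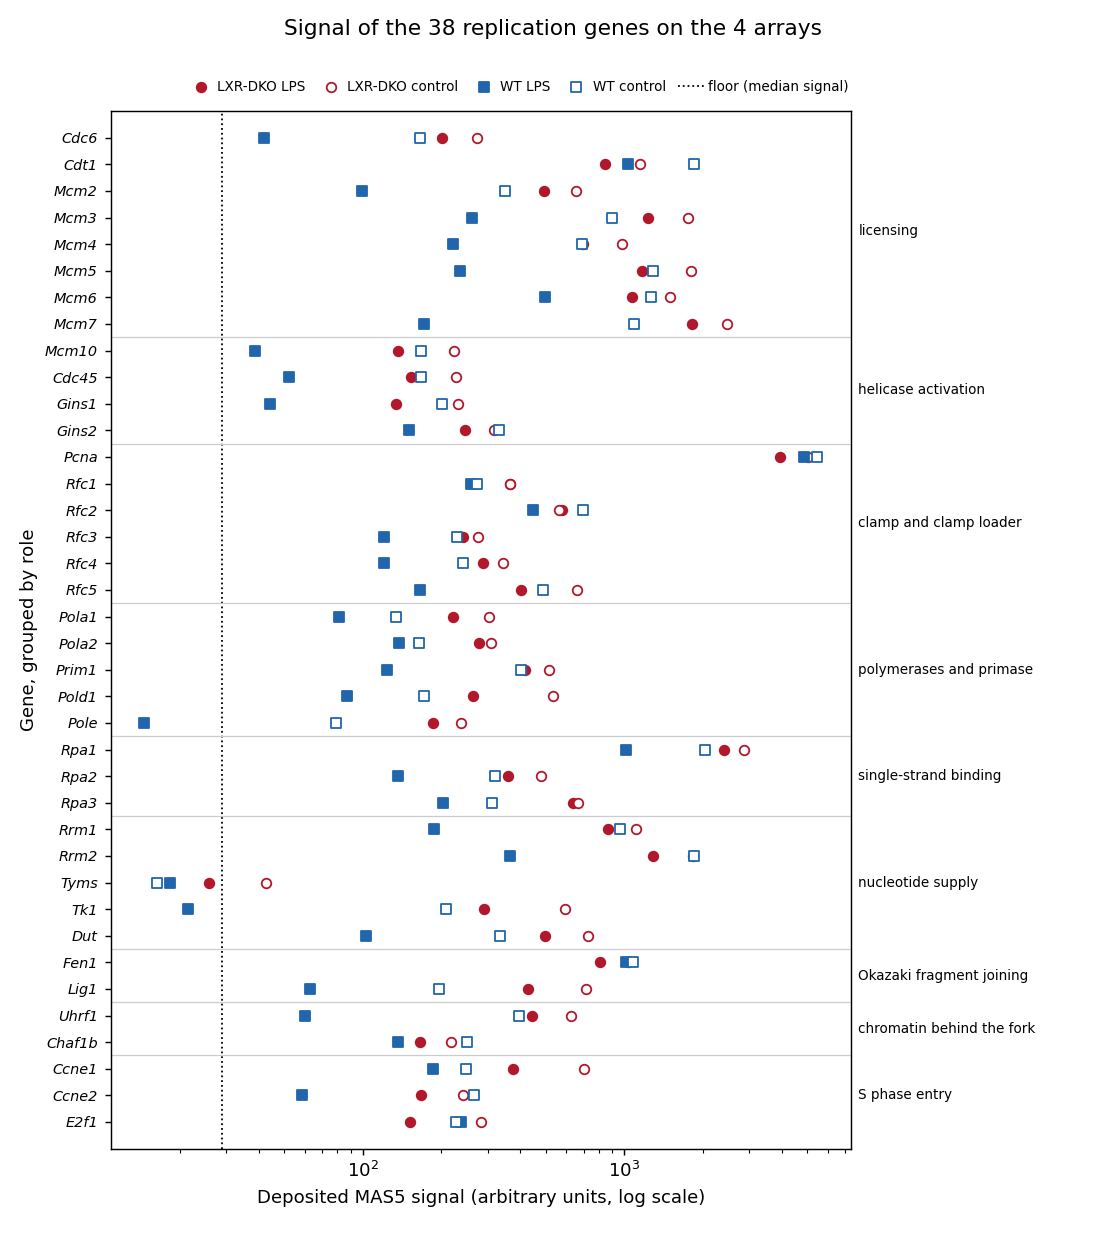
Signal of each replication gene (log axis, MAS5 intensity) on the 4 arrays, with genes grouped by role. Red circles are LXR-DKO and blue squares WT, filled with LPS and open without, and the dotted line is the floor of 28.9. WT with LPS is the lowest point for 33 of 38 genes.

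The same arrays can be read across genotypes. Without LPS, 9 of 38 genes had a 2-fold or larger excess in LXR-DKO over WT and 0 were lower, beside 12.7% higher and 9.28% lower of all genes. With LPS, 28 of 37 were higher and 0 lower, beside 17.8% and 8.76%. The median genotype log2 ratio, LXR-DKO over WT, was 1.55 with LPS and 0.49 without, beside 0.15 and 0.05 over all genes. The LPS response differed by at least 2-fold between genotypes in 17 of 38 genes, all less negative in LXR-DKO, and in 0 the other way, where 7.61% and 2.07% of all genes did. The 38 include Tyms, whose WT values were both under the floor and set to it. The 4 comparisons of LPS and of genotype share their arrays, and the WT LPS array enters both the WT response and the genotype difference with LPS. That array held the lowest of the 4 signals for 33 of 38 genes, beside 36.1% of all genes, and the LXR-DKO control array held the highest for 30 of 38, beside 28.4%.

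The 8 licensing genes comprise the helicase subunits Mcm2 to Mcm7 (MCM subunits of the replicative helicase) and the loaders Cdc6 and Cdt1. Mcm7 read 1809.7 with LPS and 2464.5 without in LXR-DKO, against 171.5 and 1084.6 in WT. Its signal was thus high on both LXR-DKO arrays, intermediate in WT control and low in WT with LPS, and the log2 LPS response was -0.45 in LXR-DKO and -2.66 in WT. With LPS its signal was 10.55-fold higher in LXR-DKO than in WT, the largest ratio among the replication genes with all signals above the floor, and its 4 probe sets spanned 2.19 to 3.40 on the log2 scale. Mcm5 had signals of 1171.9 with LPS and 1795.6 without in LXR-DKO, against 234.5 and 1282.9 in WT, a 1.53-fold and a 5.47-fold lower signal with LPS. Mcm3 read 1232.4 and 1757.8 in LXR-DKO, against 261.8 and 893.6 in WT, and Mcm2 followed the same order of arrays at 493.4 and 655.4 against 99.1 and 350.8. For Mcm2 and Mcm3 both LXR-DKO arrays were above both WT arrays, for Mcm5 LXR-DKO with LPS was just below WT control, and WT with LPS was lowest for all 3. The 4 Mcm3 probe sets that reached the floor on all arrays spanned log2 WT responses of -1.83 to -0.78. Their log2 ratios of LXR-DKO over WT with LPS spanned 0.73 to 2.23. Mcm4 read 695.8 and 980.7 in LXR-DKO, against 222.2 and 689.0 in WT, 1.41-fold and 3.10-fold lower with LPS. Mcm6 read 1065.9 and 1494.9 in LXR-DKO, against 499.0 and 1262.1 in WT. It showed the smallest WT response of the subunits, 2.53-fold lower, beside 1.40-fold in LXR-DKO.

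Cdc6, the ATPase that helps to load the helicase, read 201.0 with LPS and 273.5 without in LXR-DKO, against 42.1 and 164.9 in WT, so that with LPS it was 4.77-fold higher in LXR-DKO. Cdt1, the other loader, differed from the rest of the group at 841.8 and 1143.3 in LXR-DKO, against 1032.4 and 1840.6 in WT. It was the only licensing gene whose signal was lower in LXR-DKO than in WT with LPS (log2 ratio -0.29) and without it (-0.69). A dimmer Cdt1 probe set gave 0.55 with LPS, and scaling to the hybridisation controls turned the brighter one to 0.02, so the sign with LPS depends on the probe set and the scaling. For the 8 genes together the median log2 LPS response was -0.47 in LXR-DKO and -1.80 in WT, with 0 and 7 genes at least 2-fold lower.

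The promoters of the licensing genes Mcm3, Mcm5, Mcm6 and Mcm7 are shown for their E2F matches. That of Pcna, the sliding clamp, is shown because its signal differed little between arrays. Windows of RefSeq (GRCm38.p6) run from 250 bases before to 50 after each gene's start, with several windows for a gene of several starts, and capitals mark matches to TTTCCCGC, TTTCGCGC, TTTGCCGC or TTTGGCGC or their reverse complements GCGGGAAA, GCGCGAAA, GCGGCAAA and GCGCCAAA. Mcm6 had the most matches, and Mcm3 and Mcm5 were taken by alphabet from 4 genes tied at 2, with Mcm7 and Rfc3, while Mcm7 and Pcna were added after their values were seen. The windows are chr1:20820263-20820562 for Mcm3 (minus strand), chr8:75109259-75109558 for Mcm5 (plus), chr1:128359656-128359955 for Mcm6 (minus), chr5:138171834-138172133 for Mcm7 (minus) and chr2:132253131-132253430 for Pcna (minus).
Mcm3: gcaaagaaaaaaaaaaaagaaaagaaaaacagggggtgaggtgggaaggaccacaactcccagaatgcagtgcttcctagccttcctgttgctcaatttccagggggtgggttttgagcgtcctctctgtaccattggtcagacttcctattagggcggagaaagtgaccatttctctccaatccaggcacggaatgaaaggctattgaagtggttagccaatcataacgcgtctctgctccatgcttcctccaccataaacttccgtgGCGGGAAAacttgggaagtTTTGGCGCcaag
Mcm5: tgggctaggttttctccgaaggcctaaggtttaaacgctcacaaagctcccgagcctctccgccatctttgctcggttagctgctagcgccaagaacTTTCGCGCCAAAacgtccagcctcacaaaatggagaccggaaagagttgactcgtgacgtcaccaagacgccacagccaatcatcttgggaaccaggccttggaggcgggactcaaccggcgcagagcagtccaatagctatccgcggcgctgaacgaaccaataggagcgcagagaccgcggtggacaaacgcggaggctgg
Mcm6: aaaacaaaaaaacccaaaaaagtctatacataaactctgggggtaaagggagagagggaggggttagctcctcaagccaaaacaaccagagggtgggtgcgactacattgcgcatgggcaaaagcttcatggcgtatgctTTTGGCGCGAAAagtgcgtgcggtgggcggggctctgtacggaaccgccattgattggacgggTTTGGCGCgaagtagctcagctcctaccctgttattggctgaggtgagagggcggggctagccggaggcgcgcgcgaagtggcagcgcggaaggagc
Mcm7: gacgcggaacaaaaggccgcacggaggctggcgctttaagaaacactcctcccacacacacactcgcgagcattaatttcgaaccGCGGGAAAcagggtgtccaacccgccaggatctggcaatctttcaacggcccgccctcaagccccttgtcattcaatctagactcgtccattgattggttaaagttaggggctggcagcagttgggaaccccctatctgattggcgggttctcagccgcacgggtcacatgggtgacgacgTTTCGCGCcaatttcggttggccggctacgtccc
Pcna: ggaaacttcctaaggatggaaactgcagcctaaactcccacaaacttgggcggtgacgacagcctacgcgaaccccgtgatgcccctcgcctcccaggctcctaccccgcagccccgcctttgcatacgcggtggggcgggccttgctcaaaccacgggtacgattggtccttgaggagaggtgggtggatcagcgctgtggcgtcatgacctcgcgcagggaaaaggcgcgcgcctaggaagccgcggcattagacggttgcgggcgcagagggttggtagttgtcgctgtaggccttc

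Mcm6 held 3 matches, starting 110, 106 and 47 bases before the start, of which the first pair overlap. Mcm5 held 2 overlapping ones, 153 and 149 bases before the start, and Mcm3 held 2, 19 and 38 bases after it. Mcm7 held 1 at 165 bases before and 1 at 16 bases after the start in the window shown, its other window held 0, and Pcna held 0. RefSeq windows were at hand for 32 of 38 genes, and 11 of these (34.4%) had a match: Cdc6, Cdt1, Mcm3, Mcm5, Mcm6, Mcm7, Pola1, Pold1, Rfc3, Lig1 and Uhrf1. Per window the share was 29.7% (11 of 37), beside 2.26% (744 of 32851) of all windows of that length. CCAAT, or ATTGG on the other strand, was in 54.1% of the replication gene windows and 37.4% of all. The element TTTGAA or TTCAAA, known as CHR from mitotic genes, was in 8.11% and 17.9%, and the windows of Cdc45, Fen1 and Mcm2 held it. A match is a description of letters and not a site of binding. Genes with an E2F match had a median log2 LPS response of -0.49 in LXR-DKO and -1.64 in WT (11 genes), and those with a window and no match -0.41 (21 genes) and -1.12 (20 genes). The count at least 2-fold lower in WT was 7 of 11 with a match and 12 of 20 without.

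Helicase activation needs Cdc45 and the GINS subunits Gins1 and Gins2, which complete the moving helicase, and Mcm10, which helps to start it. Mcm10 read 136.2 with LPS and 224.1 without in LXR-DKO, against 38.7 and 167.2 in WT. A dimmer Mcm10 probe set, below the floor in WT with LPS, gave a log2 WT response of -0.68 and a ratio of LXR-DKO over WT with LPS of 0.20. Gins1 read 134.2 and 230.4 in LXR-DKO, against 44.2 and 200.1 in WT. Without LPS LXR-DKO exceeded WT by a log2 ratio of 0.42 for Mcm10 and 0.20 for Gins1, and for both WT with LPS was the low array. Cdc45 read 152.5 and 228.0 in LXR-DKO, against 52.2 and 166.4 in WT, with log2 LPS responses of -0.58 and -1.67. On their brightest probe sets all 4 genes were at least 2-fold lower with LPS in WT and 0 in LXR-DKO. Gins2, at 246.4 and 316.2 in LXR-DKO against 150.8 and 332.5 in WT, had the smallest WT response of these, 2.21-fold. With LPS it was 1.63-fold higher in LXR-DKO than in WT.

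Among the clamp and loader genes 0 of 6 were 2-fold or more lower with LPS in LXR-DKO and 2 of 6, Rfc4 and Rfc5, in WT. Pcna, the clamp that tethers polymerases to DNA, read 3954.7 with LPS and 5047.4 without in LXR-DKO, against 4872.4 and 5462.9 in WT, and its log2 LPS response was -0.35 in LXR-DKO and -0.17 in WT, from 1 probe set. All 4 arrays thus lay within a narrow band, and WT was the higher genotype with and without LPS, except after scaling to the hybridisation controls (log2 ratios of LXR-DKO over WT of 0.02 and 0.12). The small loader subunits Rfc3, Rfc4 and Rfc5 and the large subunit Rfc1 open the clamp and close it around DNA together with Rfc2. Rfc5 was 1.64-fold lower with LPS in LXR-DKO and 2.97-fold lower in WT, at 401.1 and 657.1 against 165.2 and 490.8. Rfc4 in WT was just past the 2-fold mark (120.4 with LPS and 241.4 without), and Rfc3 just short of it with a log2 ratio of -0.92. Rfc3 read 240.9 with LPS and 276.5 without in LXR-DKO, against 120.9 and 229.3 in WT. Rfc2 read 575.5 and 561.1 in LXR-DKO, against 449.1 and 698.2 in WT, so that LPS went with no lower signal in LXR-DKO (0.04) and a lower one in WT (-0.64). Rfc1 differed little on its brightest probe set, with log2 responses of -0.00 in LXR-DKO and -0.09 in WT, but its 3 probe sets spanned -1.33 to -0.00 and -0.37 to 0.14. Over the 6 genes the median log2 response was -0.22 in LXR-DKO and -0.78 in WT.

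**Figure D2:**
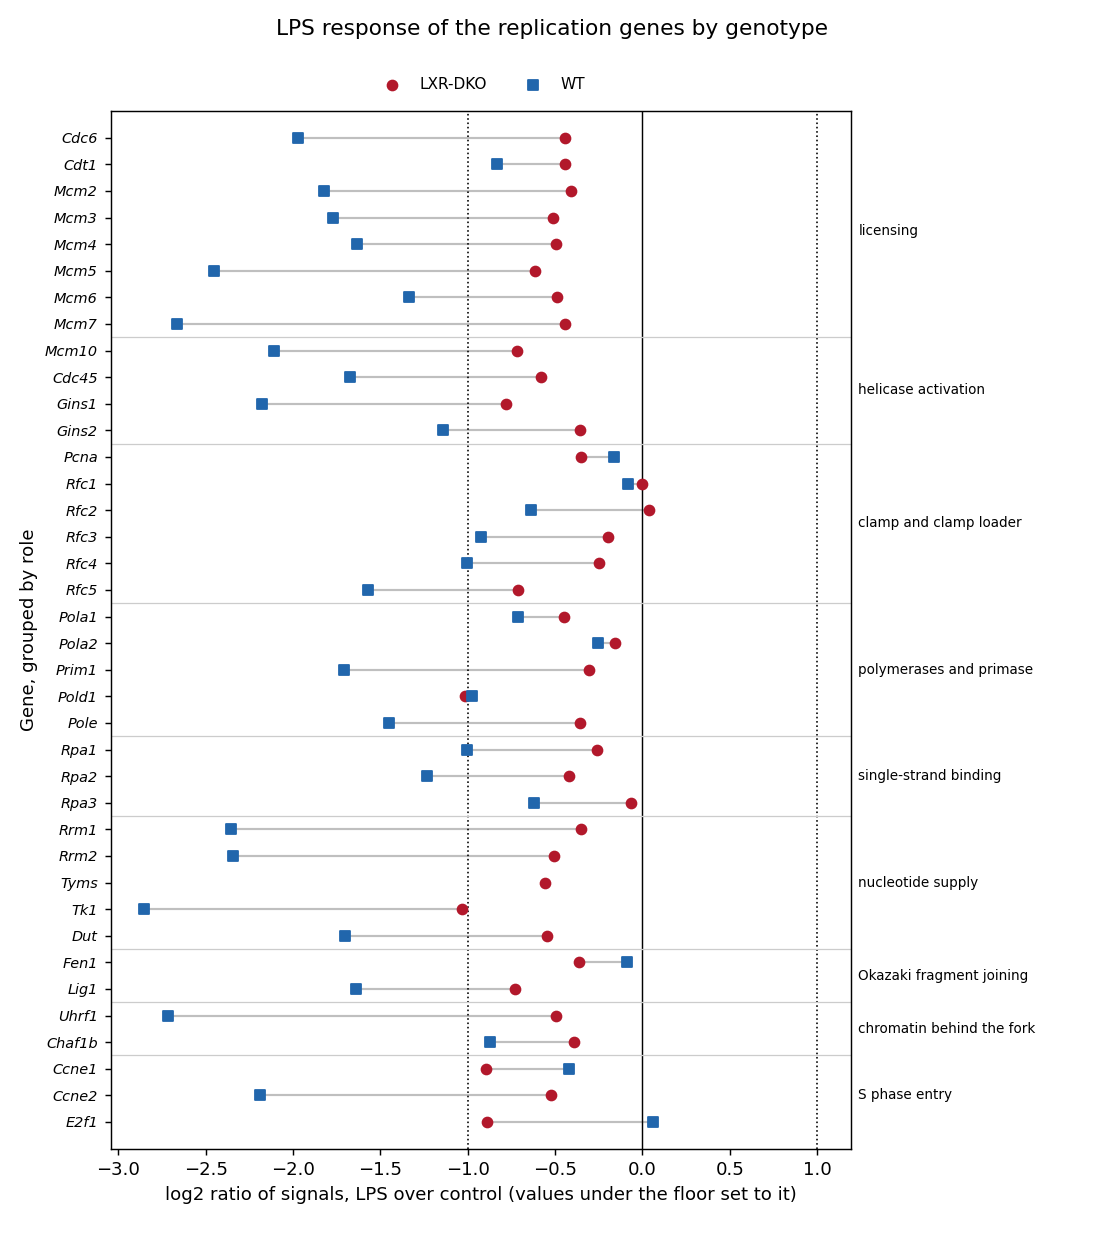
Log2 ratio of the signal with LPS over that without, for each replication gene, as a red circle for LXR-DKO and a blue square for WT joined by a line. Dotted lines mark 2-fold, and 24 WT squares and 2 LXR-DKO circles lie at or beyond the line on the left. Pole and Tk1 in WT are lower limits on the size, and Tyms has no WT value.

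The polymerase genes stood out for their level without LPS. Pold1, the catalytic subunit of polymerase δ, which copies mainly the lagging strand, read 265.0 with LPS and 535.8 without in LXR-DKO, against 87.0 and 171.1 in WT. It was lower with LPS by nearly the same ratio in LXR-DKO (2.02-fold) and WT (1.97-fold), and was 3.05-fold higher in LXR-DKO with LPS and 3.13-fold higher without. Its second probe set gave smaller ratios, all under 2-fold, with log2 values of -0.65 for LPS in LXR-DKO, 0.81 for LXR-DKO over WT with LPS and 0.93 without. Pola1, the catalytic subunit of the primase-linked polymerase α, read 222.0 and 302.8 in LXR-DKO, against 81.5 and 133.6 in WT, with log2 responses of -0.45 and -0.71. Its partner subunit Pola2 read 277.9 and 309.8 in LXR-DKO, against 137.3 and 164.1 in WT, with still smaller responses of -0.16 and -0.26. Pola2 had log2 ratios of LXR-DKO over WT of 1.02 with LPS and 0.92 without. For these 3 genes both LXR-DKO arrays were above both WT arrays, and the genotype difference was about as large without LPS as with it. Prim1, the primase that lays down RNA primers, had another pattern at 418.1 and 517.4 in LXR-DKO, against 123.4 and 403.0 in WT, with the low value confined to WT with LPS among the 4 arrays. Pole, the catalytic subunit of the leading strand polymerase ε, read 185.0 and 237.2 in LXR-DKO, against 14.6 and 79.1 in WT. Since 14.6 is under the floor, the WT signal of Pole was lower with LPS by at least 2.74-fold, and with LPS its LXR-DKO signal was higher by at least 6.40-fold.

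Rpa1, Rpa2 and Rpa3 encode the trimer that coats single-stranded DNA. Rpa1 read 2394.6 with LPS and 2871.2 without in LXR-DKO, against 1010.8 and 2031.2 in WT. Its WT log2 response of -1.01 lay just past the 2-fold mark. Rpa2 read 359.4 and 481.5 in LXR-DKO, against 135.9 and 319.2 in WT, with log2 responses of -0.42 and -1.23. Rpa3 read 635.6 and 665.3 in LXR-DKO, against 202.9 and 312.4 in WT, an excess of more than 2-fold in LXR-DKO with and without LPS. All 3 exceeded WT by 2-fold or more in LXR-DKO with LPS.

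Among the nucleotide supply genes the WT response was large for each gene that could be measured. Rrm1 and Rrm2 encode the subunits of ribonucleotide reductase, which makes deoxynucleotides. Rrm1 read 867.7 with LPS and 1108.7 without in LXR-DKO, against 187.7 and 959.6 in WT, and Rrm2 read 1290.1 and 1829.4 against 365.2 and 1851.8. For both genes the control arrays of the genotypes were close (log2 ratios of LXR-DKO over WT without LPS of 0.21 and -0.02), and only WT with LPS was low among the 4. The signal with LPS was 1.28-fold lower in LXR-DKO and 5.11-fold lower in WT for Rrm1, and 1.42-fold and 5.07-fold lower for Rrm2. These are values of the brightest probe sets. Over the probe sets at the floor or above on all arrays, log2 LXR-DKO responses spanned -0.95 to -0.35 for Rrm1 and -0.91 to -0.50 for Rrm2. Their ratios of LXR-DKO over WT without LPS spanned 0.21 to 0.52 and -0.04 to 0.52. Tk1, the cytosolic thymidine kinase that peaks in S phase, read 290.5 and 594.9 in LXR-DKO, against 21.5 and 208.6 in WT. In the setting used it was the only replication gene 2-fold or more lower with LPS in both genotypes, by 2.05-fold in LXR-DKO and at least 7.22-fold in WT, where the LPS value was under the floor. That count is not firm, since the LXR-DKO log2 ratio was -0.99 with log2(signal + 16), and Pold1 in WT reached -1.10 after scaling to the hybridisation controls. With LPS the LXR-DKO signal was higher than that of WT by at least 10.05-fold. Dut, which removes dUTP so that uracil stays out of DNA, read 498.8 and 728.8 in LXR-DKO, against 102.6 and 333.6 in WT, 1.46-fold and 3.25-fold lower with LPS. Its LXR-DKO arrays were both above both WT arrays. Tyms, the thymidylate synthase, was dim, with signals of 25.8 and 42.6 in LXR-DKO, against 18.3 and 16.4 in WT, and only LXR-DKO control reached the floor, so no WT response is given. A further Tyms probe set that is shared with another symbol was left out.

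Fen1 and Lig1 finish the lagging strand by trimming flaps and sealing nicks. Lig1, DNA ligase I, read 429.8 with LPS and 711.6 without in LXR-DKO, against 62.6 and 195.2 in WT. Its genotype difference was 6.87-fold with LPS and 3.65-fold without, the largest without LPS among the replication genes. Fen1 read 805.4 and 1037.3 in LXR-DKO, against 1017.1 and 1080.4 in WT, on its brightest probe set. A second Fen1 probe set read 591.9 and 975.7 in LXR-DKO, against 385.2 and 801.7 in WT, so that the log2 WT response was -0.09 on one and -1.06 on the other, and the genotype difference with LPS changed sign.

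Uhrf1 and Chaf1b act on chromatin behind the fork. Uhrf1, which brings maintenance methylation to newly copied DNA, read 442.1 with LPS and 624.0 without in LXR-DKO, against 60.1 and 394.1 in WT. With LPS it was 1.41-fold lower in LXR-DKO and 6.56-fold lower in WT, so that WT with LPS stood far below the other arrays. A dimmer Uhrf1 probe set, below the floor in WT with LPS, gave a larger LXR-DKO response, with a log2 ratio of -1.57. Chaf1b, a subunit of the histone chaperone CAF-1, read 165.7 and 217.4 in LXR-DKO, against 136.3 and 249.7 in WT, with log2 responses of -0.39 and -0.87, the WT one again the larger.

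The S phase entry genes did not follow 1 pattern. Ccne1 and Ccne2 encode the E cyclins that activate Cdk2, and E2f1 is a transcriptional activator of S phase genes. Ccne2 was lowest in WT with LPS, as the helicase genes were, at 167.7 with LPS and 240.7 without in LXR-DKO, against 58.4 and 266.3 in WT. Unlike Mcm2 to Mcm7, it was highest in WT control. Ccne1 read 376.6 and 699.3 in LXR-DKO, against 186.2 and 249.0 in WT, with the larger LPS difference in LXR-DKO (log2 ratio -0.89) than in WT (-0.42). E2f1 read 152.1 and 282.3 in LXR-DKO, against 236.8 and 226.8 in WT, with log2 responses of -0.89 and 0.06. It was thus lowest in LXR-DKO with LPS, and a second probe set gave -0.58 and 0.41. E2f1 had the most negative ratio of LXR-DKO over WT with LPS among the replication genes, -0.64.

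**Figure D3:**
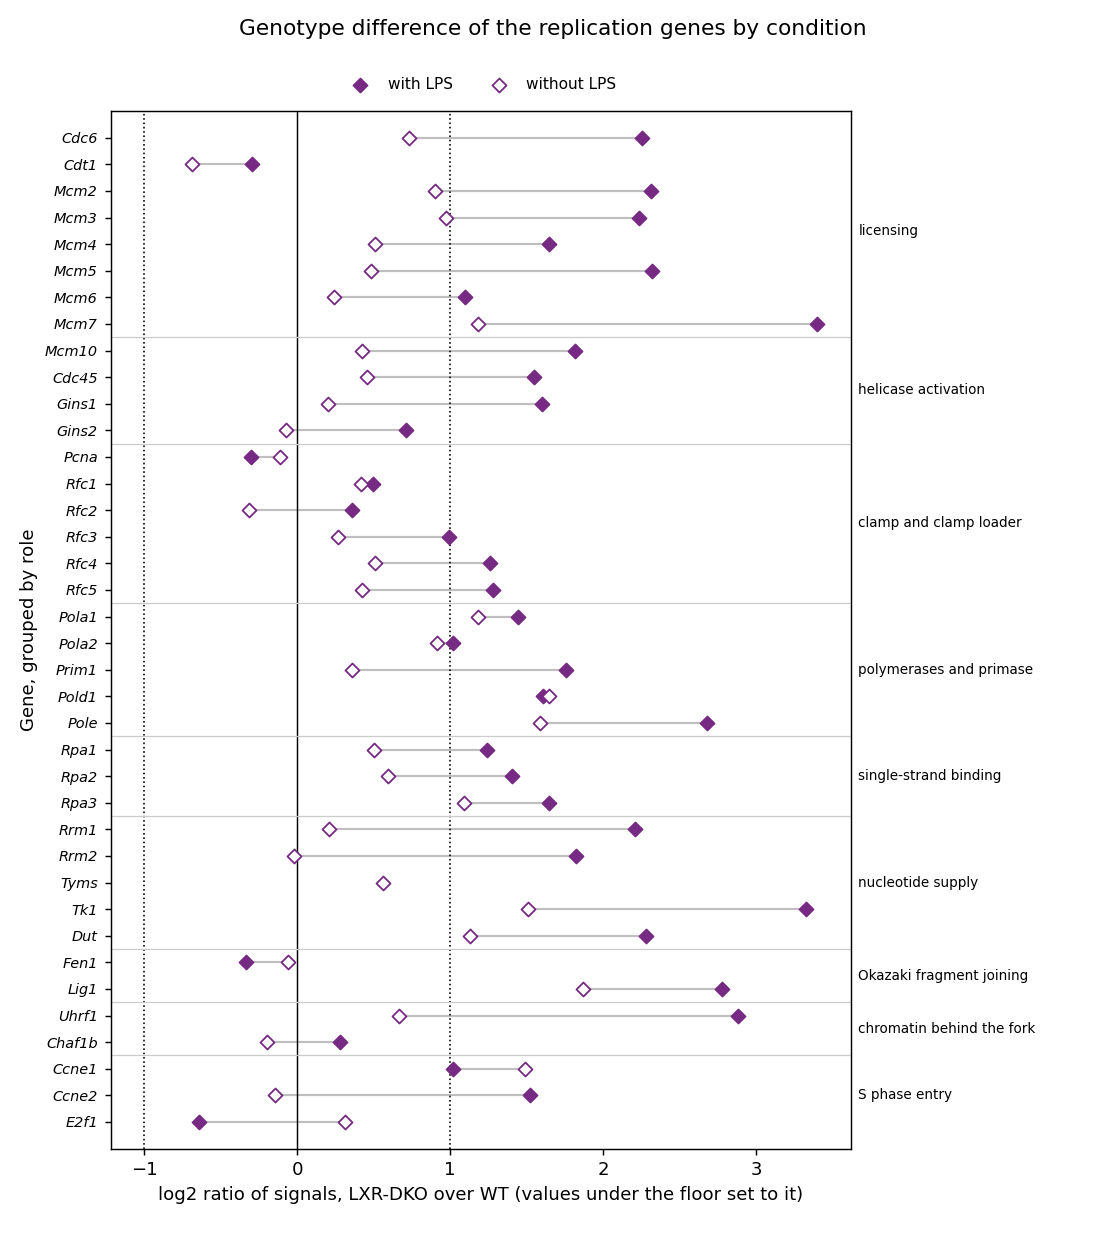
Log2 ratio of LXR-DKO over WT for each replication gene, as a filled diamond with LPS and an open one without LPS. Dotted lines mark 2-fold, and 28 filled and 9 open diamonds lie at or beyond the line on the right. The ratios of Pole and Tk1 with LPS are lower limits, and Tyms is drawn without LPS only.

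The 9 genes higher by 2-fold or more in LXR-DKO without LPS were Mcm7, Rpa3, Pola1, Pold1, Pole, Tk1, Dut, Lig1 and Ccne1, and all 9 were at least 2-fold higher with LPS as well. Ccne1 did so narrowly, with a log2 ratio of 1.02 that 6 of 10 alternatives put under 1, the lowest 0.72. Of the genes with several probe sets that reached the floor on all 4 arrays (21 of 38), 0 had probe sets of opposite sign for the LXR-DKO response and 1, Rfc1, for the WT response. With LPS, the genotype ratio had opposite signs among the probe sets of Cdt1, Fen1, Rfc1 and Rfc2. Without LPS this held for Fen1 and Rrm2, and for the difference of responses for Fen1 and Rfc1. The pooled SD among probe sets of a replication gene was 0.51 for the ratio with LPS and 0.29 for that without, and 0.43 for the difference of responses.

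**Figure D4:**
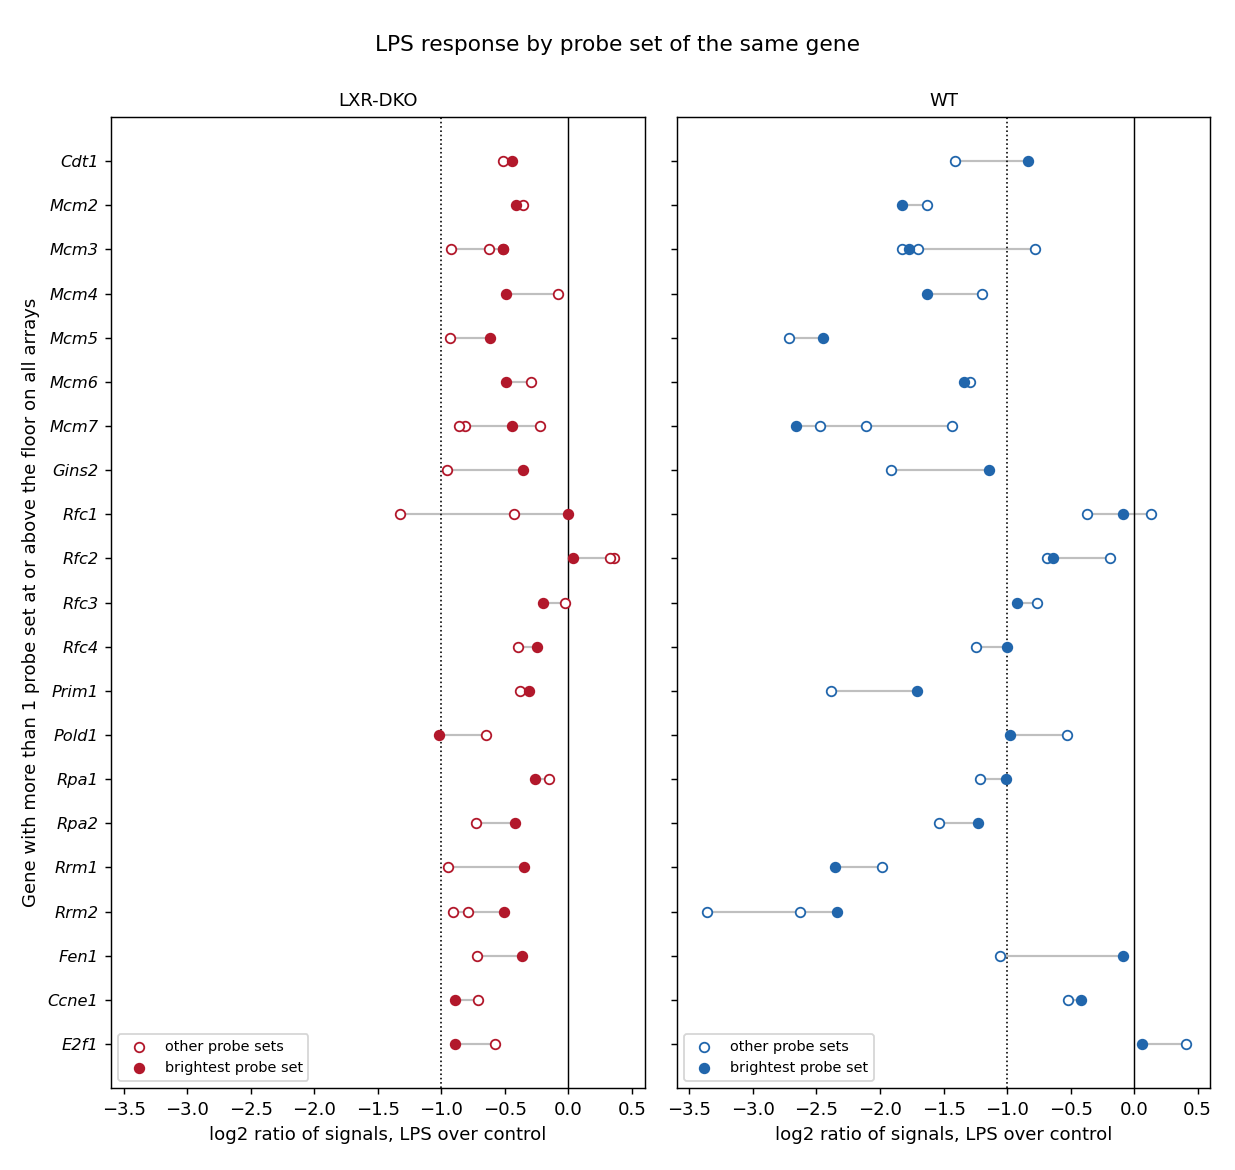
Log2 ratio of LPS over control for each probe set of the 21 replication genes with several probe sets that reached the floor on all 4 arrays, LXR-DKO on the left and WT on the right, with the brightest probe set filled. Probe sets of 1 gene mostly lie together, Rfc1 in LXR-DKO being spread from -1.33 to -0.00.

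Other genes of the pathway were counted from further lists. Of all measured genes, 1.82% were at least 2-fold lower with LPS in LXR-DKO and 4.79% in WT. In LXR-DKO over WT with LPS, 17.8% were at least 2-fold higher and 8.76% lower. Of 35 other replication genes on the array, 1 of 35 (Ticrr) was at least 2-fold lower with LPS in LXR-DKO and 14 of 33 in WT, with median log2 ratios of -0.33 and -0.81. Pclaf, a small protein that binds the clamp, read 1702.9 with LPS and 2394.0 without in LXR-DKO, against 259.6 and 1639.9 in WT. Dna2, a nuclease and helicase of flap processing, read 969.0 and 1549.7 in LXR-DKO, against 382.5 and 641.4 in WT. Dna2 thus resembled Pold1 in that its log2 responses were close, -0.68 and -0.75. Top1, the topoisomerase that relaxes DNA ahead of the fork and also serves transcription, had higher signals with LPS, 1686.0 and 1043.1 in LXR-DKO, against 1941.4 and 1151.6 in WT. Pold4, a small subunit of polymerase δ, differed little, at 1057.4 and 1061.6 in LXR-DKO against 832.8 and 822.1 in WT. With LPS, 15 of 35 of these genes exceeded WT by 2-fold or more in LXR-DKO and 1, Pole4, was lower. Among 14 other nucleotide supply genes, 0 were at least 2-fold lower with LPS in either genotype, and the medians were -0.18 in LXR-DKO and -0.41 in WT. With LPS, 2 genes of this list were higher in LXR-DKO by 2-fold or more (Cad and Dctpp1) and 2 lower (Nme1 and Shmt1). These are 14.3% and 14.3%, near the 17.8% and 8.76% of all genes. Without LPS 3 were higher (Cad, Dctpp1 and Ctps) and 1 lower (Nme1), 21.4% and 7.14% beside 12.7% and 9.28% of all genes. The median ratio of LXR-DKO over WT in this list was 0.61 with LPS and 0.27 without on the log2 scale. Cad, which starts pyrimidine synthesis, read 489.3 with LPS and 556.9 without in LXR-DKO, against 101.4 and 129.6 in WT. Nme1, a nucleoside diphosphate kinase, read 914.3 and 1354.0 in LXR-DKO, against 3422.8 and 2885.4 in WT. Cad was thus higher and Nme1 lower in LXR-DKO with and without LPS. Paics, a purine synthesis enzyme, read 2761.4 and 2678.2 in LXR-DKO, against 1518.3 and 2144.2 in WT. Cmpk1, a nucleotide kinase, read 2491.9 and 2775.6 in LXR-DKO, against 2518.4 and 3245.5 in WT. Samhd1, which degrades deoxynucleotides, had somewhat higher signals with LPS, at 2011.6 and 1443.8 in LXR-DKO against 1685.2 and 1356.8 in WT.

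Of 15 cyclins, kinases and E2F activators, Myc alone was at least 2-fold lower with LPS in LXR-DKO, and Myc, Ccna2, Ccnd1, Skp2 and E2f2 were in WT. With LPS, 10 of 15 exceeded WT by 2-fold or more in LXR-DKO, beside 17.8% of all genes. Ccnd2, a D cyclin of G1, had its highest signal in LXR-DKO with LPS, at 6748.4 with LPS and 3877.9 without in LXR-DKO, against 947.9 and 1227.1 in WT. Ccnd3, another D cyclin, read 1350.0 and 2047.2 in LXR-DKO, against 380.3 and 647.2 in WT. Cdk6, a partner kinase of the D cyclins, read 1565.2 and 1269.9 in LXR-DKO, against 631.4 and 599.8 in WT, so that all 3 were higher in LXR-DKO with and without LPS. Cdk4, the related kinase, differed little between genotypes, at 744.7 and 1093.3 against 689.1 and 984.6. The cell cycle brakes went both ways. Cdkn2b, an inhibitor of Cdk4 and Cdk6, had a 2-fold or higher signal with LPS in both genotypes (log2 ratios of 2.68 in LXR-DKO and 1.31 in WT). Cdkn1a, which encodes the inhibitor p21, read 3842.7 and 2929.6 in LXR-DKO, against 1817.1 and 2007.7 in WT. Rb1, the retinoblastoma protein that restrains E2F, read 1086.5 and 1005.1 in LXR-DKO, against 595.5 and 650.1 in WT. Tob1, an antiproliferative gene, was low in WT with LPS among its 4 signals, 1026.2 and 800.0 in LXR-DKO against 478.6 and 957.1 in WT. Btg1, of the same family, had higher signals with LPS in both genotypes, at 8577.7 and 6213.1 against 8558.2 and 5343.5. Fbxo5 and E2f6 were at least 2-fold lower with LPS in LXR-DKO, and Fbxo5, Cdkn2c and E2f7 in WT. These are 9.52% of 21 and 13.6% of 22 measured brakes, beside 1.82% and 4.79% of all genes. The median log2 responses of the brakes were 0.11 in LXR-DKO and -0.45 in WT. With LPS, 10 of 22 brakes exceeded WT by 2-fold or more in LXR-DKO and 2 were lower, beside 17.8% and 8.76% of all genes. In a list of mitosis genes, 4 of 21 (Birc5, Kif20a, Ube2c and Prc1) were at least 2-fold lower with LPS in LXR-DKO and 21 of 21 in WT, with medians of -0.72 and -2.42. Of all genes, 1.82% and 4.79% were. Top2a, the topoisomerase that untangles chromosomes, read 1562.9 and 2338.1 in LXR-DKO, against 201.7 and 1079.6 in WT. Cdc20, an activator of the anaphase-promoting complex, read 965.7 and 1608.6 in LXR-DKO, against 102.6 and 875.4 in WT. WT with LPS was the lowest array for both genes, as it was for Mki67, the proliferation antigen (1354.7 and 1855.7 against 384.7 and 1169.1), and Cdk1, the mitotic kinase (725.3 and 1137.6 against 344.2 and 950.4).

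**Figure D5:**
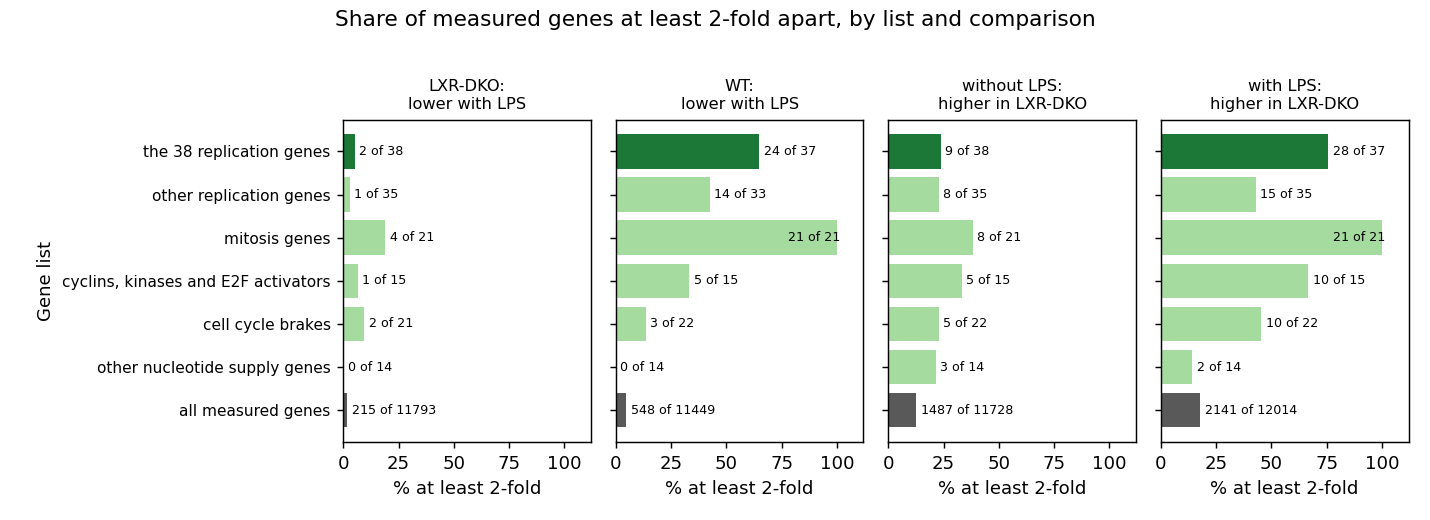
Percent of measured genes at least 2-fold lower with LPS in LXR-DKO, lower with LPS in WT, higher in LXR-DKO without LPS and higher in LXR-DKO with LPS, for the replication genes, the further lists and all genes. The replication genes stand at 5.26%, 64.9%, 23.7% and 75.7%, and all genes at 1.82%, 4.79%, 12.7% and 17.8%.

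Markers of other cell types also differed between the arrays. The summed signal of 12 progenitor markers was 6983.2 with LPS and 8163.1 without in LXR-DKO, against 6015.1 and 6021.8 in WT, with 11 and 10 genes at the floor or above, against 8 and 9. For 13 neutrophil and granulocyte precursor markers it was 28411.6 and 23657.1 (13 and 13 genes), against 13138.6 and 10165.6 (7 and 9). For 12 macrophage and monocyte markers it was 44439.9 and 51096.0 (12 and 12), against 47407.5 and 34436.1 (9 and 11). The progenitor and granulocyte sums were thus higher in LXR-DKO with and without LPS, and within WT the granulocyte and macrophage sums were higher with LPS than without although most of their 11 and 11 measured genes were not: the median log2 WT responses were -0.36 (2 genes 2-fold or more higher, 4 lower) and -0.27 (1 higher, 4 lower). For 14 mast cell, basophil and eosinophil markers the summed signal was 3567.6 and 2043.1 (10 and 11), against 863.4 and 694.1 (5 and 6). Mcpt4, Tpsb2 and Cma1 were below the floor on all arrays. For 10 B cell markers it was 7493.2 and 3771.6 (9 and 7), against 4007.2 and 2179.8 (4 and 4), with Vpreb1 below the floor on all. Of the WT sums with and without LPS, Blnk gave 3547.1 and 1686.0 for B cells, and Mmp8 9716.4 and 7882.0 for granulocytes. At least 2-fold higher in LXR-DKO with LPS were 4 of 9 measured B cell markers, with 1 lower. Among 13 granulocyte markers 10 were higher and 1 lower, and among 12 macrophage markers 5 and 1. In these lists the counts without LPS were 4 and 1 of 7, 8 and 2 of 13, and 5 and 2 of 12. Of the mast cell, basophil and eosinophil markers, 9 of 10 were higher with LPS and 0 lower, and 6 and 0 of 11 without. Of the DC markers, 13 of 17 were higher with LPS and 0 lower, and 11 and 0 of 16 without. Of all genes, 17.8% were higher with LPS and 8.76% lower, and 12.7% and 9.28% without. C1qa, a macrophage marker, read 2680.3 and 5335.4 in LXR-DKO, against 1.5 and 18.0 in WT. Its log2 ratio of LXR-DKO over WT without LPS, at least 7.53, was the largest of that list. Cd68, another macrophage marker, went the other way, at 2139.2 and 2836.3 against 8902.7 and 7043.9. By sign alone, 5 of 12 macrophage markers were higher in LXR-DKO with LPS and 7 lower, and 8 and 4 without. The DC marker sum was 67942.8 and 55435.0, against 24389.7 and 27490.7. T and NK cell markers were at or near background, with Cd3e, Cd4, Ncr1 and Gzma below the floor on all arrays and sums of 163.7 and 108.6 against 114.1 and 108.6. The Gapdh 3′ to 5′ ratio, a sign of RNA quality, was 0.82 and 0.76, against 0.84 and 0.82, and the actin ratio was 1.28 and 1.14, against 1.26 and 1.11, higher with LPS in both genotypes. The part of these cell types and of RNA quality in the replication gene differences was not tested.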

How the data were processed

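Total RNA from 4 cultures of CD11c-selected mouse DCs was hybridised to 1 array each after 2 cycles of amplification, per the labels, which favours the 3′ ends of transcripts and can make probe sets far from them dim. The deposited values are intensity values that the authors computed with MAS5, per the submitters' processing notes; its version and settings are not given in the sources used here. Their trimmed mean was 200.0 on every array. Of 45037 non-control probe sets, 34945 had 1 gene symbol in the platform annotation, 932 had several and 9160 were not listed, and 34741 gene numbers matched RefSeq. Probe sets with several symbols were not used. A gene was measured when at least 1 array of a comparison reached 28.9, and lower values were set to it, so such ratios are lower limits. For the difference of responses 1 of the 4 arrays was enough, and values with signals set to the floor need not be limits there. Genes at least 2-fold apart were counted, in Python with pandas 2.3.3 and numpy 2.4.6, on code tested on simulated data. With 1 array per group there is no spread between replicates, and no p-value was computed. Alternatives were 10 settings of scaling, floor and probe set choice. The members and lists were chosen with earlier results of these data known. All members were to be named, and in each further list the 4 genes with the highest mean signal; the choice of any other gene followed a look at its values.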

Additional observations from a re-analysis of the deposited data

Results flagged for a closer look

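Rfc2 and E2f1 had LPS responses of opposite sign in the genotypes. For Rfc2 the log2 response was 0.04 in LXR-DKO and -0.64 in WT, a difference of 0.67, and its 3 probe sets gave differences between 0.51 and 1.04. For E2f1 it was -0.89 in LXR-DKO and 0.06 in WT, a difference of -0.95, with -0.99 on the second probe set. Scaling to the hybridisation controls turned the WT response of E2f1 to -0.06. With 1 array per group neither difference was tested.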

How the results depend on the processing

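Of 100 values recomputed (5 medians and 5 counts of the replication genes under 10 alternatives), 92 kept their direction and moved by less than the SD among probe sets over all genes (medians) or at most 1.5 times (counts), 8 moved and 0 reversed. Among those kept, the median of LXR-DKO over WT with LPS went from 1.55 to 1.02 at a 75th percentile floor. That is within the all-gene SD of 0.54 but not the 0.51 of the replication genes. Scaling to the 75th percentile changed the count at least 2-fold lower with LPS in LXR-DKO to 1 and the count higher in LXR-DKO without LPS to 5, and log2(signal + 16) without a floor changed the count lower with LPS in LXR-DKO to 0. A floor at the 75th percentile (177.4) gave 11 genes lower with LPS in WT with a median of -0.84, 17 higher in LXR-DKO with LPS, and 6 with a difference of responses of at least 2-fold, with a median of 0.20; it raises dim WT values by construction. At that floor the difference of responses reversed to -0.44 for Cdc6, -0.34 for Mcm10, -0.36 for Cdc45, -0.20 for Gins1, -0.36 for Pole and -0.80 for Tk1, and with only probe sets without a suffix to -0.97 for Dut, whose only such probe set reached the floor in LXR-DKO control alone. Over the 4 scalings 22 signs turned, all of values no larger than 0.30.

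Scaling moved all genes: the median of LXR-DKO over WT with LPS shifted by -0.26 (75th percentile), -0.16 (quantile), -0.13 (median ratio) and 0.28 (hybridisation controls), without LPS by -0.16 and 0.21 (first and last), and the WT response by 0.12 and -0.12. Relative to all genes the replication medians ranged over all alternatives from -0.52 to -0.40 for LPS in LXR-DKO, -1.51 to -0.81 for LPS in WT, 0.39 to 0.49 for LXR-DKO over WT without LPS, 0.95 to 1.53 with LPS and 0.19 to 0.85 for the difference of responses. For LPS in WT, 336 genes were higher and 548 lower, and 447 and 439 by the 75th percentile. The share of calls that were higher was 57.7% for LXR-DKO over WT without LPS (44.1%, and 72.8% by hybridisation controls), 67.0% with LPS (47.1%, 83.3%, and 55.3% by quantiles) and 78.6% for the difference of responses (68.5% by quantiles). Counts of all genes moved most with the floor: for LPS in WT, 548 lower became 1235 at the 25th percentile (8.8) and 150 at the 75th, and for LXR-DKO over WT with LPS, 2141 higher became 947 at the 75th. In that comparison 1053 lower became 1729 by 75th percentile scaling and 622 by hybridisation controls. Replicates could not be left out. No paired analysis was possible because each group has 1 array and the groups share only the number 1. Values under the floor limit Tyms, Pole and Tk1. Signals in WT with LPS not far above the floor limit further genes, among them Mcm10 (38.7), Cdc6 (42.1), Gins1 (44.2) and Cdc45 (52.2).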
